A study of Gallus gallus with 10 samples.

Results

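DNA replication and S phase genes encode the proteins that mark, open and copy the genome once in each cell cycle, with the enzymes that supply its nucleotides. These genes were described in the cranial neural folds of chick embryos that had received a morpholino against NSD3 or a control one. The set holds 39 named genes in 8 role groups, chosen by name, with earlier results of these data known. A row of the deposited table carried the symbol of 37 of them, each in a single row, among 19168 genes in all. MCM7 and GINS4 were not analysed here.

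Both groups were embryos at 5 to 7 somites, electroporated on both sides at Hamburger and Hamilton stage 4 to 5. The mix held 0.5 mM of the morpholino and the carrier plasmid pCS2+myc at 300 ng/µL. The control morpholino is labelled mmMO and the other NSD3 MO, an antisense oligomer against NSD3, which encodes a histone methyltransferase. Each group had 5 libraries of poly(A) RNA, each from the pooled folds of 12 embryos, so a value averages the cells of a fold and of 12 animals. The labels do not give the share of cells that took up the morpholino, and the electroporated plasmid was the same in both groups. Values are FPKM, fragments scaled to gene length and library size by the authors, which can be compared between genes of different length.

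Replication starts when the origin recognition complex, with CDC6 and CDT1, loads rings of MCM proteins onto DNA in G1. In S phase CDC45 and the GINS complex turn each ring into an active helicase, and the sliding clamp PCNA, loaded by replication factor C, holds the polymerases on the template. E2F transcription factors switch on many of these genes when cyclin E and CDK2 inactivate the RB family, and p21, the product of CDKN1A, inhibits CDK2 and binds PCNA. Neural folds at these stages are a proliferating epithelium from which neural crest cells leave.

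Sequencing depth, estimated from the FPKM steps of low genes and set against its geometric mean, ran from 0.887 in NSD3 morpholino pool 3 to 1.295 in pool 1 of the same group. The tissue label was checked against markers. All 5 neural fold markers (SOX2, PAX7, TFAP2A, ZIC1 and MSX1) had signal, with a summed FPKM of 473 to 737 in controls and 412 to 544 with the NSD3 morpholino. All 5 neural crest markers (FOXD3, SNAI2, SOX9, SOX10 and ETS1) summed to 583 to 1157 and 373 to 629 FPKM. Markers of mesoderm and head mesenchyme summed to 16.2 to 23.1 FPKM in controls and 24.8 to 37.2 FPKM with the NSD3 morpholino. By limma ZIC1 was called lower in every alternative run (adjusted p at most 0.0434). SOX9 was called lower and FOXC2, of the mesoderm list, higher with all pools, at adjusted p of 0.0333 and 0.0222. The SOX9 call was lost without control pools 4 and 5 (adjusted p 0.0858), with the replicate block (0.0821) and in 7 of 10 removals of a single pool. The FOXC2 call was kept without control pools 4 and 5 (0.00571) but lost with the block (0.0839) and in 6 of 10 such removals. Surface ectoderm markers summed to 207 to 280 FPKM in controls and 255 to 288 FPKM with the NSD3 morpholino. Of 4 tested, 0 were called, where 1.5% of all tested genes were called higher and 1.02% lower. Log2 fold changes were positive for 3 and negative for 1, with a median of 0.16, or 0.34 without control pools 4 and 5. An unadjusted limma p under 0.05 was found for 2 of them, against 18.1% of all tested genes. Endoderm markers summed to at most 2.501 FPKM and blood and endothelium markers to at most 19.3 FPKM in any pool. Those of notochord and floor plate summed to at most 10.2 FPKM. Control pools 4 and 5 had the highest mean levels of the neural fold markers, at 0.40 and 0.35 above the mean of the 10 pools on the log2 scale, and pool 5 had the highest of the neural crest markers, at 0.98. The fits were also run without these 2 pools, a setting chosen with earlier results of these data known.

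NSD3 itself was at 20.8, 21.5, 21.3, 24.7 and 25.9 FPKM in control pools 1 to 5 and at 17.3, 15.9, 18.4, 19.5 and 18.4 FPKM in the NSD3 morpholino pools. The highest NSD3 morpholino pool was under the lowest control, and groups did not overlap for 6.04% of all tested genes. The log2 fold change was -0.34 (limma adjusted p 0.055) with all pools. Without control pools 4 and 5, which held the highest NSD3 values, it was -0.24 (limma adjusted p 0.118). For NSD3 the authors' deposited table lists -0.35 on the log2 scale and 0.00439 as the adjusted p. The labels do not say whether this morpholino blocks splicing or translation, and the latter can leave RNA levels as they are.

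With all pools, no replication or S phase gene was called higher or lower with the NSD3 morpholino. Without control pools 4 and 5, TYMS was called lower and 0 members higher, against 1.2% and 1.68% of all tested genes. With all pools, 0 of the 37 members tested by limma over all genes rose and 0 fell at an adjusted p under 0.05. Of the 11935 tested genes, 1.5% were called higher and 1.02% lower. Over all genes these were 179 and 122 calls, or 125 and 173 with FPKM rescaled to the same total, where members again had 0. The smallest adjusted p among members was 0.119 with all pools. At an unadjusted p under 0.05 there were 6 members with all pools, FEN1, RRM2, E2F1, POLE, POLA1 and ORC6, against 18.1% of all tested genes. None of the 37 is among the 674 genes of the authors' deposited table, a list that is short beside the 19168 genes with FPKM values. Fitted log2 fold changes ran from -0.29 for TYMS to 0.25 for RRM2, with 21 above 0 and 16 below. Their median was 0.04, beside -0.00303 over all tested genes. Since folds are bulk tissue, fewer cells of a type and less RNA per cell cannot be told apart.

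The intervals show what size of change these libraries could have held. For 35 of the 37 members the 95% interval of the log2 fold change lay within a 1.5-fold change in either direction, as it did for 79.4% of all tested genes. The exceptions were RFC3, a clamp loader subunit, with an interval from -0.39 to 0.65, and TYMS, thymidylate synthase, from -0.64 to 0.07. These are intervals with all pools. Without control pools 4 and 5, those of RFC3 (-0.62 to 0.07), TYMS (-0.78 to -0.35) and CDC45 (-0.73 to -0.17) reached beyond a 1.5-fold change. The median standard error was 0.0945 for members and 0.117 for all tested genes, both on the log2(FPKM + 0.5) scale. With all pools the intervals of FEN1, RRM2, E2F1, POLE, POLA1 and ORC6 did not include 0. These were the 6 members with an unadjusted limma p under 0.05, against 18.1% of all tested genes, and none passed after adjustment. For the other members, changes smaller than the interval could not be told from the spread between pools.

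**Figure D1:**
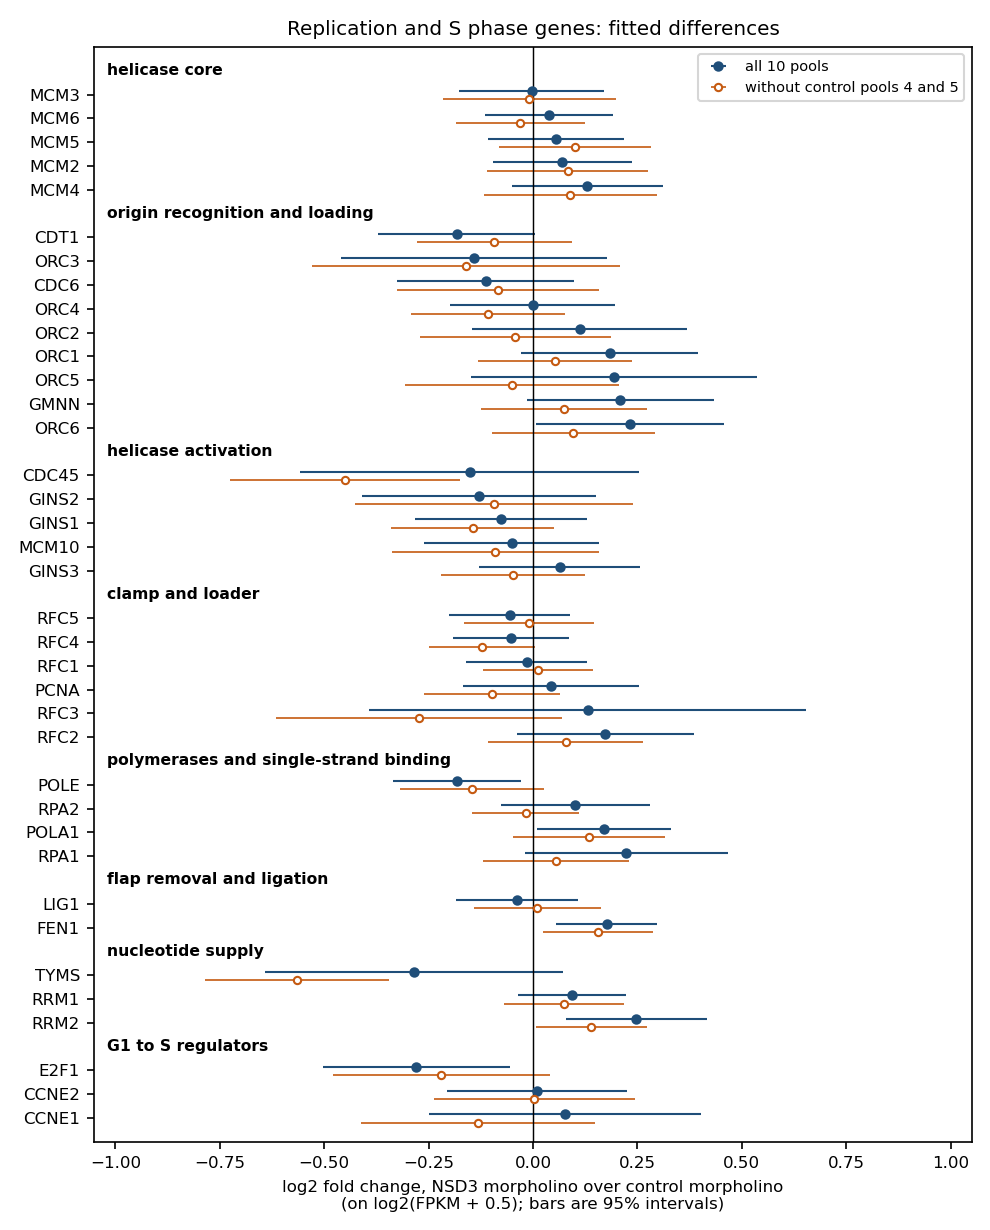
Fitted log2 fold change of each member (x axis, NSD3 morpholino over control morpholino, on log2(FPKM + 0.5)) with its 95% interval, in blocks by role. Filled points use all 10 pools and open points leave out control pools 4 and 5. Filled points lie between -0.29 and 0.25, and the open point of TYMS lies lowest at -0.56.

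Most of the machinery was abundant. Mean FPKM over the 10 pools ran from 1.12 for ORC3 to 354 for PCNA, with a median of 40.7 beside 11.9 for all tested genes, and 32 of 37 members lay above that gene median. RRM2 at 249 FPKM and FEN1 at 181 FPKM followed PCNA. The 5 measured subunits of the MCM ring lay close together, from 51.4 FPKM for MCM6 to 98.5 FPKM for MCM2. Subunits of the origin recognition complex did not: ORC3 was at 1.12, ORC5 at 8.30, ORC2 at 11.2, ORC4 at 17.1, ORC1 at 21.1 and ORC6 at 37.1 FPKM. How complete the gene models behind these lengths are was not tested.

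**Figure D2:**
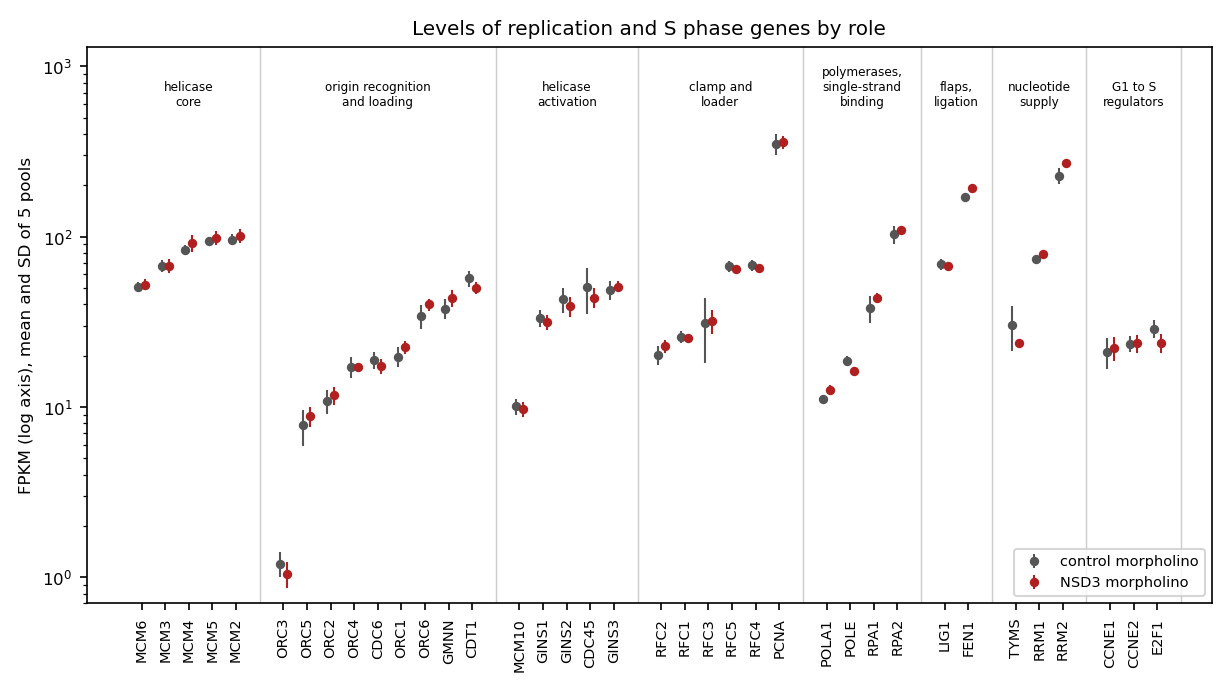
Mean FPKM (log axis) of each member with its SD over 5 pools, for control (grey) and NSD3 morpholino (red) pools, in blocks by role. Levels span from about 1 FPKM for ORC3 to over 300 FPKM for PCNA, and group means of the same gene lie close together.

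None of the 5 helicase subunits passed. MCM4 had the largest positive difference of the 5, at 93.0, 82.3, 81.6, 77.8 and 81.3 FPKM in control pools 1 to 5 and 101, 103, 83.9, 78.6 and 90.4 FPKM in NSD3 morpholino pools 1 to 5. Its groups overlapped, with a log2 fold change of 0.13 (95% interval -0.05 to 0.31). MCM3 was at 76.6, 65.3, 62.1, 66.6 and 67.5 FPKM in controls and 72.0, 73.9, 57.9, 64.2 and 69.6 FPKM with the NSD3 morpholino. The MCM3 group means were 67.6 ± 5.44 and 67.5 ± 6.52 FPKM (SD, n = 5 each). MCM2, MCM5 and MCM6 had log2 fold changes of 0.07, 0.05 and 0.04. NSD3 morpholino pool 2 held the highest mean level of the 5 subunits, 0.18 above the mean of the 10 pools, and pool 3 of that group the lowest, at -0.15.

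Among origin recognition and loading genes, 0 of 9 passed. ORC6, the smallest subunit of the origin recognition complex, was at 35.6, 34.4, 42.2, 30.5 and 28.2 FPKM in controls and 43.9, 43.1, 37.8, 38.1 and 36.9 FPKM with the NSD3 morpholino. Only control pool 3 reached into the range of the other group, and the log2 fold change was 0.23 (95% interval 0.01 to 0.46) with a limma adjusted p of 0.261. Without control pools 4 and 5 it was 0.10. The licensing factor CDT1 and its inhibitor geminin, encoded by GMNN, differed in opposite directions without passing. CDT1 was at 58.2, 53.2, 48.8, 64.9 and 59.9 FPKM in controls and 52.4, 52.6, 43.7, 47.7 and 53.7 FPKM with the NSD3 morpholino, a log2 fold change of -0.18 (limma adjusted p 0.292). GMNN was at 43.1, 39.4, 41.3, 31.8 and 33.4 FPKM in controls and 44.2, 49.8, 41.0, 46.2 and 37.2 FPKM with the NSD3 morpholino, a log2 fold change of 0.21 (limma adjusted p 0.31). For each of these genes control pools 4 and 5 lay at the end of the control range away from the other group, and without them the values were -0.09 for CDT1 and 0.07 for GMNN. CDC6, the ATPase that works with CDT1, was at 18.2, 21.4, 16.1, 20.8 and 18.0 FPKM in controls and 18.2, 18.4, 14.7, 16.7 and 19.1 FPKM with the NSD3 morpholino, with overlapping groups. The remaining subunits ORC1 to ORC5 had log2 fold changes from -0.14 for ORC3 to 0.19 for ORC5. Without control pools 4 and 5 that of ORC5 was -0.05, and that of ORC2 went from 0.11 to -0.04.

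Helicase activation genes included the member with the widest control spread after RFC3. CDC45, the factor that joins MCM and GINS into the active helicase, was at 63.3, 49.1, 68.0, 38.7 and 32.2 FPKM in control pools 1 to 5. In NSD3 morpholino pools 1 to 5 it was at 51.7, 42.8, 41.1, 46.9 and 36.4 FPKM. All of these fell inside the control range, with control pool 5 below and control pools 1 and 3 above every pool of the other group. The log2 fold change was -0.15 (limma adjusted p 0.72) with all pools and -0.45 (adjusted p 0.0799) without control pools 4 and 5. GINS3 was at 52.7, 56.9, 48.1, 41.9 and 44.4 FPKM in controls and 53.1, 56.0, 46.3, 49.6 and 49.2 FPKM with the NSD3 morpholino. GINS1, GINS2 and MCM10, an initiation factor, had log2 fold changes of -0.08, -0.13 and -0.05.

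The sliding clamp and its loader showed no called gene. PCNA was at 386, 358, 403, 313 and 287 FPKM in controls and 384, 394, 319, 347 and 346 FPKM with the NSD3 morpholino. The NSD3 morpholino pools all lay within the control range, with a log2 fold change of 0.04 (95% interval -0.17 to 0.25). RFC2 was at 21.9, 20.1, 22.3, 20.4 and 16.0 FPKM in controls and 21.2, 25.7, 22.2, 23.7 and 20.7 FPKM with the NSD3 morpholino. RFC5 was at 66.2, 70.0, 58.6, 70.3 and 70.4 FPKM in controls and 61.7, 67.0, 61.0, 68.6 and 63.7 FPKM with the NSD3 morpholino. Groups overlapped for each of these loader subunits. RFC3, named after its values were seen, ran from 18.5 to 48.8 FPKM among controls, with the lowest values in pools 4 and 5, and from 26.7 to 39.5 FPKM in the other group. Its control coefficient of variation of 41.8% was the largest of the members. RFC1 and RFC4 had log2 fold changes of -0.01 and -0.05.

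Polymerase subunits differed in opposite directions, again without a call. POLE, the catalytic subunit of the leading strand polymerase, was at 19.7, 18.1, 16.6, 19.7 and 18.9 FPKM in controls and 17.1, 16.5, 15.9, 16.7 and 15.3 FPKM with the NSD3 morpholino. Only control pool 3 overlapped the other group, and the log2 fold change was -0.18 (95% interval -0.34 to -0.03, limma adjusted p 0.198). Without control pools 4 and 5 it was -0.15 (95% interval -0.32 to 0.03, limma adjusted p 0.326). POLA1, the catalytic subunit of the priming polymerase, had group means of 11.2 ± 0.604 FPKM in controls and 12.6 ± 0.790 FPKM in the NSD3 morpholino pools (SD, n = 5 each), and its log2 fold change was 0.17 (limma adjusted p 0.247). That of POLA1 without control pools 4 and 5 was 0.13 (95% interval -0.05 to 0.32, limma adjusted p 0.392). RPA1, the large subunit of the single-strand binding protein, was at 46.0, 38.3, 42.4, 33.4 and 29.3 FPKM in controls and 45.4, 45.9, 40.7, 46.8 and 40.5 FPKM with the NSD3 morpholino. The RPA1 difference of 0.22 on the log2 scale was 0.06 without control pools 4 and 5, which held its lowest values. RPA2 had a log2 fold change of 0.10.

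FEN1, the nuclease that trims flaps between Okazaki fragments, was the only member whose groups did not overlap, 1 of 37, against 6.04% of all tested genes. It was at 178, 167, 172, 168 and 164 FPKM in controls and 187, 209.8, 182, 182 and 199.9 FPKM with the NSD3 morpholino. Every NSD3 morpholino pool exceeded the highest control, and the means were 169.8 ± 5.34 and 192 ± 12.3 FPKM (SD, n = 5 each). The log2 fold change was 0.18 (95% interval 0.06 to 0.30), and its adjusted p by limma, 0.119, was above 0.05. Without control pools 4 and 5 it was 0.16 (adjusted p 0.177). LIG1, the ligase that seals the fragments, was at 67.6, 71.0, 60.4, 69.3 and 75.1 FPKM in controls and 61.8, 69.3, 65.4, 66.3 and 71.0 FPKM with the NSD3 morpholino, and its groups overlapped fully.

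Nucleotide supply genes held both extremes of the fitted differences. RRM2, the cell cycle regulated subunit of ribonucleotide reductase, was at 257, 234, 243, 209.9 and 196 FPKM in controls and 277, 289, 247, 275 and 261 FPKM with the NSD3 morpholino. Only NSD3 morpholino pool 3 fell below the highest control, and the log2 fold change was 0.25 (95% interval 0.08 to 0.42) with a limma adjusted p of 0.12. Without control pools 4 and 5 it was 0.14 (adjusted p 0.224). RRM1, the partner subunit, had a log2 fold change of 0.09. TYMS, which makes thymidylate, was at 34.1, 30.6, 42.4, 21.7 and 21.5 FPKM in control pools 1 to 5 and at 25.4, 24.0, 21.9, 24.5 and 23.2 FPKM with the NSD3 morpholino. Control pools 1 to 3 lay above every NSD3 morpholino pool, and control pools 4 and 5 below every one of them. With all pools the log2 fold change was -0.29 (limma adjusted p 0.394). Without control pools 4 and 5 it was -0.56 (adjusted p 0.0182), the only call among members in that setting, where 0 of 37 were higher and 1 lower against 1.68% and 1.2% of all tested genes. The call needed both pools to be left out, since the adjusted p was 0.266 without pool 4 alone and 0.212 without pool 5 alone.

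Among G1 to S regulators, E2F1, the activator of many S phase genes, was at 32.5, 24.8, 25.8, 30.6 and 30.5 FPKM in controls and 27.7, 24.4, 21.3, 20.3 and 24.9 FPKM with the NSD3 morpholino. Its groups overlapped through control pools 2 and 3 and NSD3 morpholino pools 1 and 5. The log2 fold change was -0.28 (95% interval -0.50 to -0.05, limma adjusted p 0.18). Without control pools 4 and 5 it was -0.22 (95% interval -0.48 to 0.04, limma adjusted p 0.327). CCNE1, a cyclin E gene, was at 23.2, 26.2, 22.9, 16.4 and 16.8 FPKM in controls and 24.2, 21.6, 24.2, 24.4 and 16.3 FPKM with the NSD3 morpholino. CCNE2, its paralog, was at 26.3, 20.9, 23.7, 25.7 and 20.98 FPKM in controls and 27.9, 24.1, 20.1, 22.1 and 24.2 FPKM with the NSD3 morpholino. Neither cyclin gene separated the groups. In two-sided exact permutation tests, which took every way of dividing the libraries into groups of 5 and were run for 7 regulators, E2F1 had a p of 0.0476 and CDT1 of 0.0635. Adjusted over the 7 by the Benjamini-Hochberg method, these exact p-values were both 0.222. The exact p was 0.103 for GMNN, 0.294 for CDC6, 0.746 for PCNA, 0.77 for CCNE1 and 0.944 for CCNE2, where 0.00794 is the smallest this design can give.

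**Figure D3:**
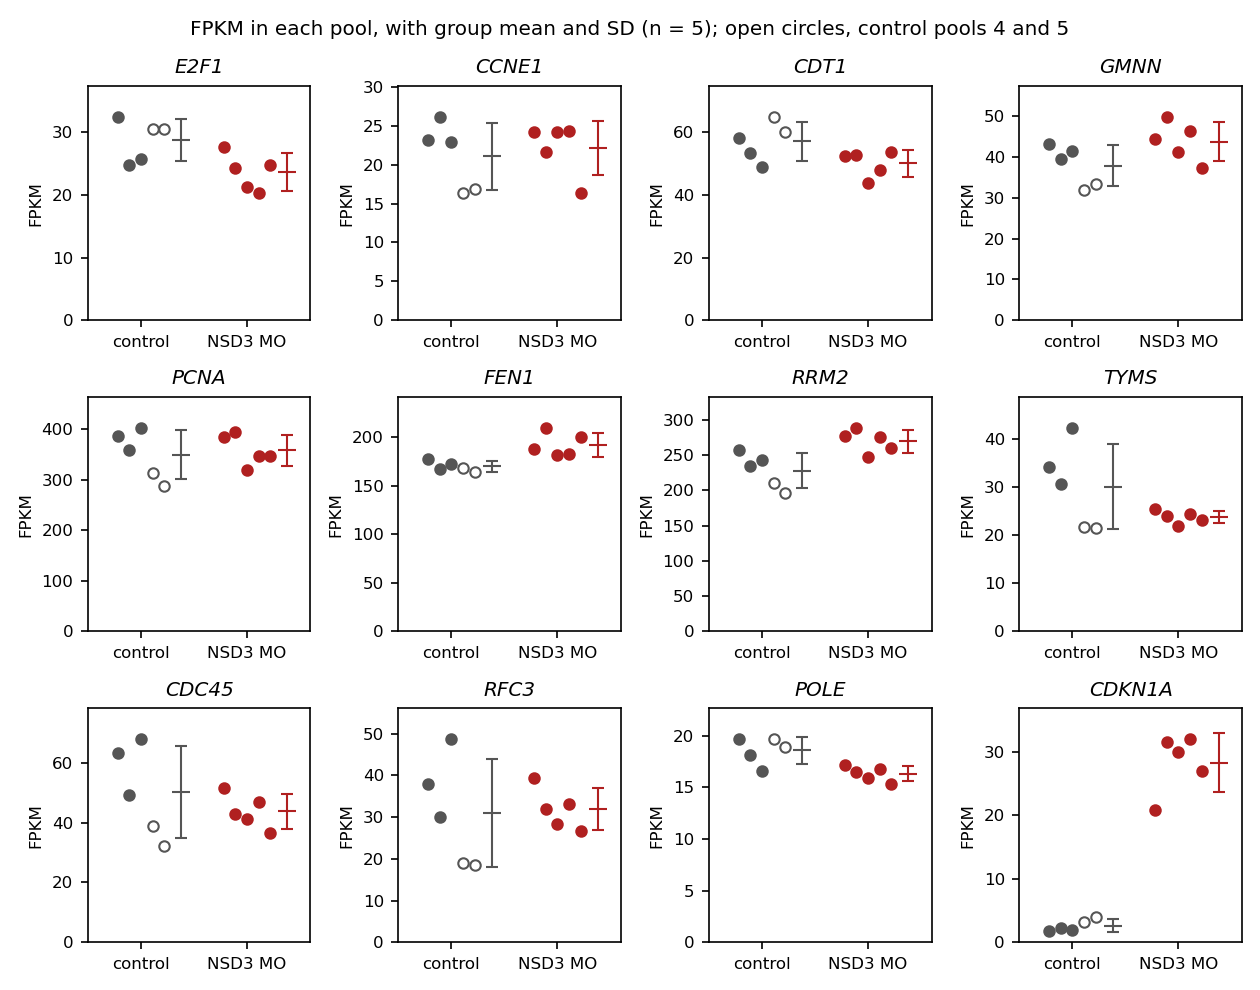
FPKM of 11 members and of CDKN1A in each pool (y axes start at 0), with the mean and SD of each group of 5. Open circles are control pools 4 and 5, which lie below the other controls for TYMS, CDC45, RFC3, RRM2, PCNA, GMNN and CCNE1, while for FEN1 all NSD3 morpholino pools lie above all controls.

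CDKN1A, whose product p21 inhibits CDK2, was measured in the same pools. It was at 1.75, 2.27, 1.92, 3.28 and 4.00 FPKM in controls and 20.8, 31.5, 29.9, 32.05 and 26.9 FPKM with the NSD3 morpholino. Its log2 fold change was 3.23 (limma adjusted p 3.68e-06), the highest of all tested genes. Member log2 fold changes lay between -0.29 and 0.25 with all pools, and between -0.56 and 0.16 without control pools 4 and 5. The members' median absolute log2 fold change was 0.113, beside 0.124 for all tested genes. In the list of other E2F, pocket protein and G1 cyclin genes, CDKN1A was the 1 gene called of 25 tested. Over all tested genes 1.5% were called higher and 1.02% lower. The list's remaining 24 did not pass, and its median log2 fold change was 0.02.

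Values of other replication genes came from the same fits. Of 32 tested genes for further polymerase subunits, firing factors and chromatin assembly, 0 passed with all pools. Over all tested genes 1.5% were called higher and 1.02% lower, and at such shares lists this short can hold 0 calls. The median log2 fold change of the 32 was 0.02, or -0.02 without control pools 4 and 5. Of 17 tested genes of nucleotide synthesis 0 passed, with a median of 0.05, or 0.02 without these pools. SAMHD1, a nucleotide triphosphate hydrolase of that list, had a log2 fold change of 0.34 (limma adjusted p 0.124), and in the authors' deposited table its adjusted p was 0.0411. Among 19 replication checkpoint genes, CHEK1, the kinase that ATR activates at stalled forks, fell and 18 did not pass. CHEK1 was at 58.1, 60.9, 54.1, 66.3 and 65.6 FPKM in controls and 49.9, 50.0, 47.3, 44.9 and 53.4 FPKM with the NSD3 morpholino. Its groups did not overlap, as was so for 6.04% of all tested genes. Its log2 fold change was -0.31 (limma adjusted p 0.0462), and in the authors' deposited table -0.31 with an adjusted p of 0.00719. The limma call was lost without control pools 4 and 5, at an adjusted p of 0.101, with the replicate block, at 0.0841, and on leaving out any single pool other than control pool 3, at 0.0604 to 0.117. The log2 fold change stayed between -0.35 and -0.28 over the single pools left out.

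Genes of G2 and mitosis were set beside the members. Of 27 tested, 0 passed, with a median log2 fold change of -0.08 with all pools and -0.15 without control pools 4 and 5. FOXM1, the transcription factor of many mitotic genes, was at 26.0, 29.5, 27.5, 26.8 and 25.5 FPKM in controls and 17.9, 19.8, 25.5, 22.6 and 19.9 FPKM with the NSD3 morpholino. The groups met without overlapping, between 25.469 FPKM in NSD3 morpholino pool 3 and 25.490 FPKM in control pool 5. Groups did not overlap for 6.04% of all tested genes. The log2 fold change of FOXM1 was -0.36 (limma adjusted p 0.0657), and in the authors' deposited table -0.36 with an adjusted p of 0.0134. Without NSD3 morpholino pool 3 alone, the highest of its group, the limma adjusted p of FOXM1 was 0.0346. On leaving out any other single pool it was 0.0734 to 0.164. The limma adjusted p was 0.0776 without control pools 4 and 5 and 0.0923 with the replicate block. FOXM1 passed with FPKM rescaled to the same total (0.0373) and with library weights (0.0445). Without control pools 4 and 5, NDC80, a kinetochore subunit, was the 1 gene of this list called, at -0.43 (limma adjusted p 0.0326). In that setting 1.2% of all tested genes were called lower. With all pools NDC80 was at -0.15 (limma adjusted p 0.686), and no other setting called it. The difference between this list and the members was not tested.

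The members' levels differed between control pools. Control pools 4 and 5 held the 2 lowest control values for 18 of 37 members, against 27.7% of all tested genes, and the 2 highest for 3, against 26.5%. Control pool 5 had the lowest value of all 10 pools for 16 members, against 17.8% of all tested genes. The mean level of the members relative to the mean of the 10 pools was 0.11, 0.04, 0.04, -0.09 and -0.16 in control pools 1 to 5 on the log2 scale. In NSD3 morpholino pools 1 to 5 it was 0.06, 0.10, -0.07, 0.01 and -0.04, all within the control range. The 18 were 6 of 9 origin recognition and loading genes, 3 of 6 clamp and loader genes, 2 of 3 nucleotide supply genes and 2 of 4 polymerase and single-strand binding genes. With them were 2 of 5 helicase core genes, 2 of 5 helicase activation genes, 1 of 3 G1 to S regulators and 0 of 2 flap removal and ligation genes. Differences between role groups were not tested. CDT1, MCM5 and RFC5 were the 3 members with their 2 highest control values in control pools 4 and 5.

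**Figure D4:**
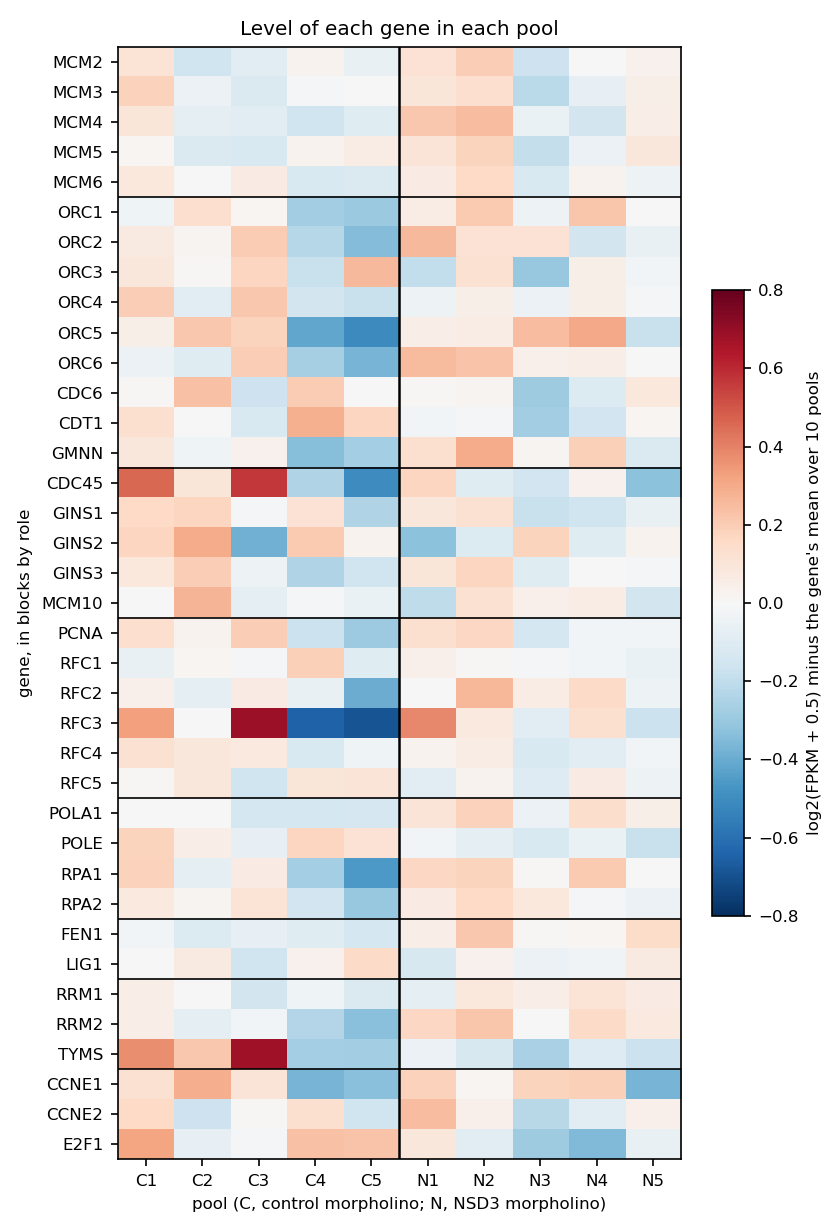
Level of each of the 37 members (rows, in blocks by role) in each pool (columns, C for control and N for NSD3 morpholino), as log2(FPKM + 0.5) minus the gene's mean over the 10 pools. Columns C4 and C5 are blue for many rows, most deeply for RFC3 and ORC5, while CDT1 is red there.

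The same pools differed in other lists. In control pools 4 and 5 the other replication genes had mean levels of -0.08 and -0.15, nucleotide synthesis genes -0.14 and -0.14, and G2 and mitosis genes -0.11 and -0.12, each below control pools 1 to 3. Of the 5 neural fold markers, mean levels in these pools were 0.40 and 0.35, against 0.01, 0.18 and 0.03 in control pools 1 to 3. Of 8 listed markers of neurons, which do not divide, 7 had a row and 4 were tested. Their summed FPKM was 311 to 491 in controls and 287 to 333 with the NSD3 morpholino, nearly all from TUBB3, while NEUROD1 reached at most 0.215 FPKM in any pool. The mean level of the 4 neuron markers was 0.37 and 0.27 in control pools 4 and 5. The part of tissue makeup in the members' values was not tested.

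**Figure D5:**
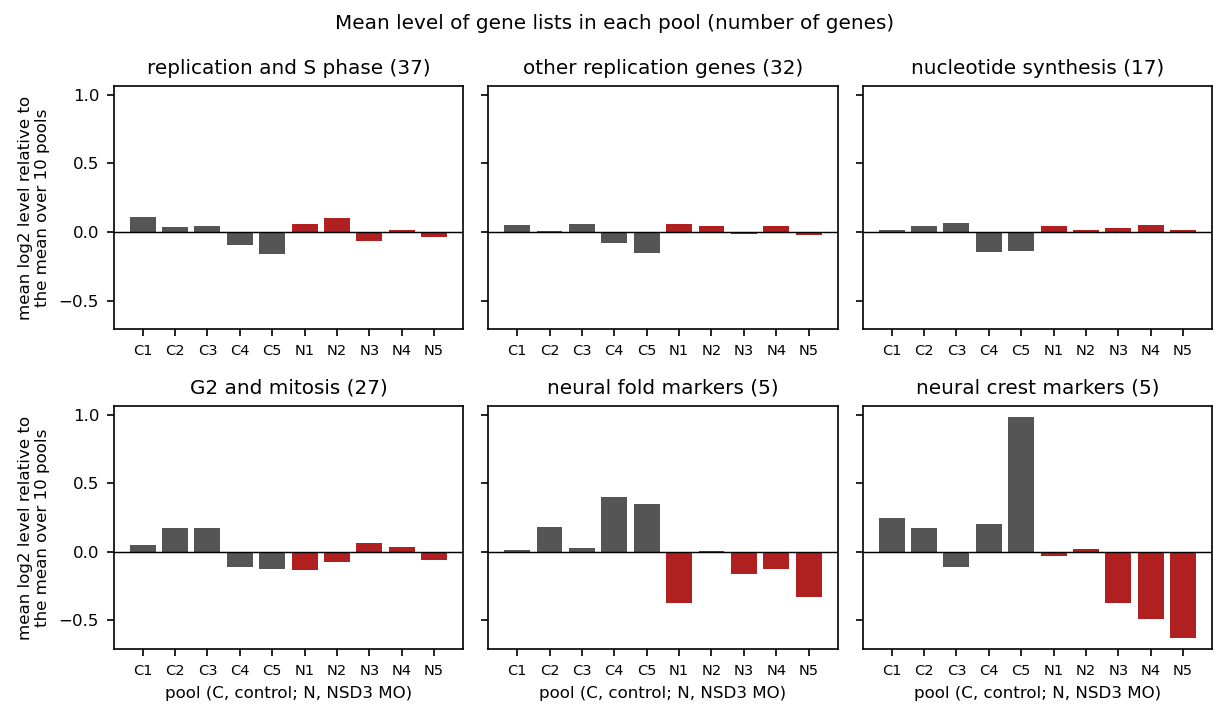
Mean level of 6 gene lists in each pool (bars, log2 scale, relative to the mean over the 10 pools, number of tested genes in brackets). The replication, nucleotide synthesis and mitosis lists are below 0 in C4 and C5, where the neural fold markers are highest.

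Leaving out control pools 4 and 5 moved the members' median log2 fold change from 0.04 to -0.03, and that of all tested genes from -0.00303 to -0.00727. The number of members with a positive value went from 21 to 15 of 37, and the share of all tested genes from 49.4% to 48.6%. How many of all tested genes changed sign was not computed, while 10 members did. Beside ORC2 and ORC5 these were MCM6 (0.04 to -0.03), GINS3 (0.06 to -0.05), PCNA (0.04 to -0.10), RFC3 (0.13 to -0.27), RPA2 (0.10 to -0.02), CCNE1 (0.08 to -0.13), RFC1 (-0.01 to 0.01) and LIG1 (-0.04 to 0.01). By role group the medians went from 0.11 to -0.05 for origin recognition and loading, from 0.14 to 0.02 for polymerases and single-strand binding, and from 0.05 to 0.08 for the helicase core. Over all settings tried, 12 members kept a positive and 11 a negative log2 fold change. FEN1, RRM2 and POLA1 were among the former, and E2F1, POLE, CDT1 and TYMS among the latter. Settings such as the replicate block and the filters leave a log2 fold change as it is, so they cannot change its sign. The share of all tested genes that kept their sign was not computed. Spread within groups was smaller with the NSD3 morpholino for 27 of 37 members, as it was for 70.2% of all tested genes. The members' median coefficient of variation was 11.5% in controls and 8.62% with the NSD3 morpholino, and 8.10% over control pools 1 to 3. For all tested genes these medians were 14.9%, 10.6% and 9.89%.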

How the data were processed

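FPKM per gene in 10 libraries was computed and deposited by the authors. A further table of theirs gives, for 674 genes, the deposited log2 fold change and adjusted p-value. The submitters' processing notes name the build GRCg6a (galGal6) and the tools DESeq2 1.28.1, STAR 2.5.3a and Trimmomatic 0.32. What each did, the counting tool, its use of strand and the annotation were not given in the sources used. Groups and replicate numbers came from sample titles. No read counts were used, so the counting error behind an FPKM value is unknown. No library pair of a group shared identical values in over 0.142% of tested genes.

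FPKM is not a count, so limma 3.58.1 in R 4.3.3 was fitted on log2(FPKM + 0.5) with a mean-variance trend and a group term, over the 11935 genes whose mean FPKM reached 1. Tests were two-sided with Benjamini-Hochberg adjustment over all these genes, and a gene was called under 0.05. Intervals are 95% intervals of that fit. A list's level is the mean of its tested genes' log2 values, each relative to its own mean. Exact permutation tests used scipy 1.17.1. The model was also run on simulated data, with values drawn independently for each gene and library. Such data hold no shift shared by many genes of a pool, so the run cannot judge one.

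Members, lists and tests were chosen with earlier results of these data known. All members could be named; values in every library follow a fixed rule (called, in the authors' table, without overlap, the extreme differences of each role group, and 7 regulators), beside NSD3, CDKN1A and called genes of other lists. No sequences or coordinates were used. Alternatives were other pseudocounts, filters, scalings, weights, a replicate block and left-out libraries.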

Additional observations from a re-analysis of the deposited data

Results flagged for a closer look

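Among the 78 groups of 5 values screened for a lone high or low value (37 members, NSD3 and CDKN1A in each group), 1 stood out. MCM10 was at 12.0 FPKM in control replicate 2, while the other controls lay between 9.27 and 9.85 FPKM, a gap of 0.789 of the group's range. Chance alone marks about 1 in 20 such groups.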

How the results depend on the processing

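Over 21 alternatives, the count of members called higher was 0 in all. The count called lower was 0 except without control replicates 4 and 5, where it was 1 (TYMS). The members' median log2 fold change of 0.04 had its lowest value, -0.03, in that same setting. In each alternative it moved by less than the SD of the members' mean level over all control pools. That SD includes control pools 4 and 5, so it cannot judge the setting that leaves them out. With FPKM rescaled to the same total the median was -0.00373, beside -0.0465 for all genes. With the replicate block it was 0.0424 and 0 members were called, while over all genes 97 were higher and 62 lower against 179 and 122. Leaving out 1 library gave 70 to 210 genes higher and 33 to 151 lower, and library weights gave 344 and 207. NSD3 passed with a mean FPKM of at least 5 (adjusted p 0.048) and with the same total (0.036), by limma. Same-numbered libraries had correlations of deviations from -0.128 to 0.34. Libraries of unlike number were not compared, so these values cannot show whether the numbers mark pairs. The main fit took no pairs, and the replicate block is the alternative that did.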
